A study of Mus musculus with 8 samples.

Results

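The genes that make and load MHC class II molecules were followed in mouse alveolar macrophages, phagocytes that live in the air spaces of the lung. The set holds 9 of the 15521 genes of the deposited table and was chosen by gene symbol: H2-Aa, H2-Ab1, H2-Eb1, Cd74, H2-DMa, H2-DMb1, H2-DMb2, Ciita and Ctss. Cells from bronchoalveolar lavage were purified by adherence for 2 h and grown with GM-CSF at 10 ng/ml, a cytokine these cells need. There were 4 groups of 2 libraries, and all shared the lavage, the adherence step and GM-CSF. The vehicle group received DMSO and the MSDC group received MSDC at 10 µM, with a pretreatment time of 2 h given for all 4 groups. The remaining groups received DMSO or MSDC and then Poly(I:C) at 5 µg/mL. This stimulation lasted 24 h by the sample labels and overnight by the series' design text. No time after the pretreatment is given for the groups without Poly(I:C), so time in culture may differ between groups compared here. Poly(I:C) is a synthetic double-stranded RNA that mimics viral RNA, and MSDC is a code name shared by compounds that bind the carrier of pyruvate into mitochondria. Which compound was used, the mouse strain and the age of the mice are not given in the sources used here. Nothing in the labels says whether the 2 libraries of a group came from separate mice or cultures, so the p-values reflect no more than the spread between these libraries, which may be technical.

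MHC class II molecules are pairs of an alpha and a beta chain that show peptides from endocytosed proteins to CD4 T cells. The invariant chain holds newly made pairs in the endoplasmic reticulum and takes them to endosomes, where proteases trim it to a short peptide that the DM molecule exchanges for others. The transactivator CIITA binds no DNA itself but joins the RFX, CREB and NF-Y proteins on the X, X2 and Y boxes upstream of these genes, and its own expression is the usual limit on theirs. Alveolar macrophages are known to carry less class II than dendritic cells.

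The 6 H2 members lie together on chromosome 17 of GRCm38, from the start of H2-DMa at 34119693 to the end of H2-Eb1 at 34316674. H2-DMb2 (34143229 to 34151553) and H2-DMb1 (34153191 to 34160229) are neighbours. Ciita lies on chromosome 16 from 10480014 to 10531064, and Ctss on chromosome 3 from 95526786 to 95556405. Promoters are shown because the X and Y boxes are what the products of Ciita and its partners act through. RefSeq start sites of GRCm38.p6 gave a promoter window for 6 of the 9 members, and H2-Ab1, Cd74 and Ciita were not matched. The 150 bases before the start site are printed 5′ to 3′ on the strand of the gene. Capitals mark an X box core (AACNGATG), an X2 core (TGACG), a Y box core (ATTGG) or an interferon response element core (GAAANNGAA), each searched on both strands.

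H2-Eb1 (chr17:34305717-34305866, plus strand): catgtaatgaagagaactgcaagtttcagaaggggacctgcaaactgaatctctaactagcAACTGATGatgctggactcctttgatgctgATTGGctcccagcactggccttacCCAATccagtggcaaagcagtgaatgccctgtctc

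H2-DMb1 (chr17:34153041-34153190, plus strand): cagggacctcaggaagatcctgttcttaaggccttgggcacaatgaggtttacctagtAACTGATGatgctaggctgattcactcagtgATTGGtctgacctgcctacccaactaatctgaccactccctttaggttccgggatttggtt

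H2-DMb2 (chr17:34145099-34145248, plus strand): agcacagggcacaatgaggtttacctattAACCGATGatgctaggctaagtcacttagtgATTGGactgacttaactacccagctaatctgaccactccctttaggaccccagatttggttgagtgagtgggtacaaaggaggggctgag

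H2-Aa (chr17:34287824-34287973, minus strand): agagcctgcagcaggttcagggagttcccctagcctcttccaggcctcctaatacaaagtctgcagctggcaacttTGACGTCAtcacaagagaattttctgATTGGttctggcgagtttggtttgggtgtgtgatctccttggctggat

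Ctss (chr3:95526636-95526785, plus strand): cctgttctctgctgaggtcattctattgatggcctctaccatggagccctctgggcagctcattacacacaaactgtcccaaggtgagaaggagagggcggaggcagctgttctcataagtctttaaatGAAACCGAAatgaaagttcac

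H2-Eb1, H2-DMb1 and H2-DMb2 each held an X box core followed on the same strand by a Y box core, with 22, 23 and 23 bases between them. The X box core began 89, 92 and 121 bases before the start site. Over 250 bases before the start site, an X box core was found in 1.98% of the 32851 RefSeq promoter windows, a Y box core in 33.8%, and the pair with 10 to 30 bases between in 7 windows (0.0213%), of which 4 others belonged to H2-Eb2, BC051142, H2-M10.4 and Gm35697. The H2-Aa window held a Y box core 48 bases before the start site and, 74 bases before it, the palindrome TGACGTCA, which counts as an X2 core on each strand (17.8% of windows hold an X2 core). The Ctss window held an interferon response element core 21 bases before the start site (7.13% of windows), and an X box core outside the printed stretch, 207 bases before it, with no Y box core. Of the 2 windows of H2-DMa, 1 held a Y box core, 198 bases before the start site, and neither an X box core. The start sites used for H2-DMb2 and for both H2-DMa windows lie inside the annotated spans of those genes. A match describes letters in these windows and shows no binding.

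The libraries held 28762425 to 29493223 counts. Of the members, Ciita was the thinnest, with 9 to 155 counts in a library, and H2-DMb2 had 5.76 to 125.42. H2-DMb1 and H2-DMb2 are near-identical neighbours whose counts were not whole in any of the 8 libraries, and their split is uncertain. Defining genes of alveolar macrophages were present: all 10 markers were above 1 TPM (a level scaled to gene length, with the same total in each library), and their sum was 11696.5 to 13751.8 TPM over the 8 libraries. Single markers moved in opposite directions with MSDC alone, in the comparison in which the members fell. Marco (361 to 1030 TPM on average), Fabp4 (816 to 2138), Ear2 (978 to 2558), Krt79 (6.23 to 88.5) and Mrc1 (432 to 530) rose, Chil3 (8557 to 4752), Pparg (193 to 120), Car4 (969 to 801) and Itgax (1153 to 841) fell, and Siglecf (255 to 248) did not pass. The part of these shifts in the class II results was not tested.

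In vehicle the members spanned a wide range of levels, and the order by length-scaled level was Ctss, Cd74, H2-DMa, H2-DMb1, H2-Aa, H2-Ab1, H2-Eb1, H2-DMb2 and Ciita. Ctss, the endosomal protease cathepsin S that trims the invariant chain, stood at 3057 ± 9.40 TPM (SD, n = 2, as for all means here), and Cd74, the invariant chain gene, at 927 ± 14.7 TPM. Ciita stood at 1.64 ± 0.262 TPM and ranked 10044 of 15521 genes, while Cd74 ranked 153. No neighbours in this order overlapped between their libraries. In MSDC the order was the same except that H2-DMb1 (89.2 ± 1.46 TPM) stood above H2-DMa (81.9 ± 1.32 TPM). With Poly(I:C) in vehicle, H2-Aa stood above H2-DMb1, and H2-DMb1 and H2-Ab1 overlapped. With Poly(I:C) and MSDC, H2-DMa and H2-DMb1 overlapped.

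**Figure D1:**
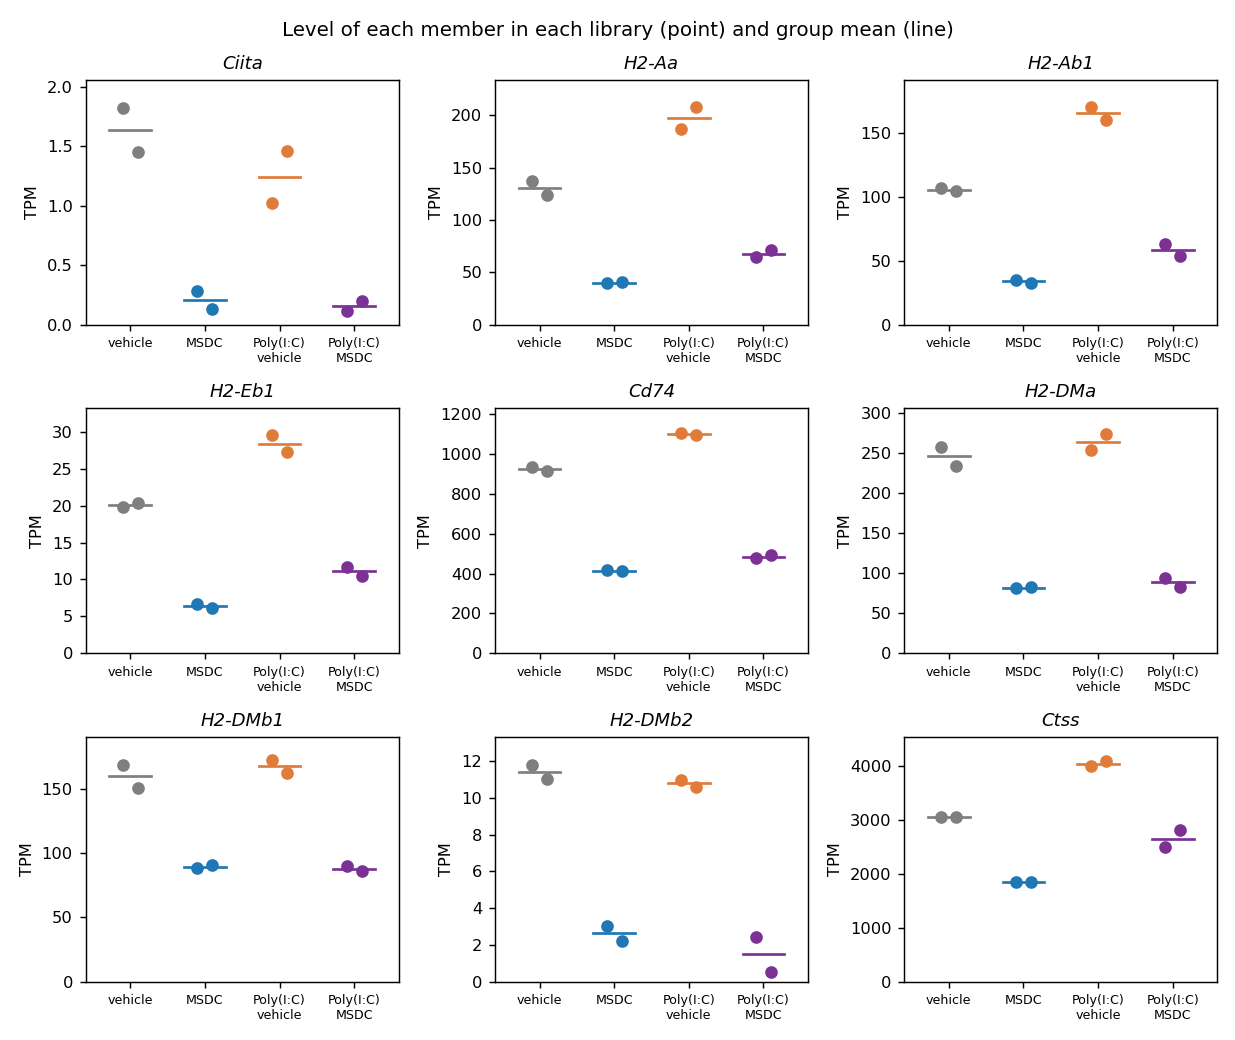
Level of each member in TPM (vertical axes, each from 0, linear) in the 8 libraries (points) and the mean of each group of 2 (lines). In each panel both MSDC libraries lie below both vehicle libraries, and both libraries with Poly(I:C) and MSDC lie below both with Poly(I:C) and vehicle.

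The first question was what MSDC changed in unstimulated cells. All 9 members were lower with MSDC, by edgeR's quasi-likelihood test at a Benjamini-Hochberg adjusted p under 0.05 over all 11621 genes tested. The median log2 fold change was -1.61, against 0.00 over all genes tested. In this comparison 12.4% of all genes tested were lower and 11.1% were higher. Ciita and H2-DMb2 fell most, the alpha and beta chain genes and H2-DMa fell about equally, and Cd74, H2-DMb1 and Ctss fell least. In bulk RNA, fewer cells that express a gene and less RNA per cell cannot be told apart.

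Ciita was at 1.82 and 1.45 TPM in vehicle (155 and 128 counts) and at 0.28 and 0.13 TPM in MSDC (22 and 13 counts). Both MSDC libraries were far below both vehicle libraries, and the groups did not overlap. The log2 fold change was -2.98 (SE 0.34, adjusted p = 6.3e-06), which is 7.89-fold lower, with a 95% interval from -3.71 to -2.25. The table has 1 row for Ciita, so transcripts from its different promoters were not separated.

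H2-Aa, which encodes the alpha chain of the I-A molecule, was at 137.19 and 124.05 TPM in vehicle and at 40.1 and 40.52 TPM in MSDC. H2-Ab1, which encodes its beta chain, was at 106.69 and 104.34 TPM in vehicle and at 34.95 and 32.89 TPM in MSDC. H2-Eb1, the beta chain gene of the I-E molecule, was at 19.83 and 20.34 TPM in vehicle and at 6.72 and 6.08 TPM in MSDC. The MSDC libraries of these 3 genes kept 30.9, 32.1 and 31.9% of the vehicle mean, and no groups overlapped. The log2 fold changes were -1.67 (SE 0.08) for H2-Aa, -1.61 (SE 0.09) for H2-Ab1 and -1.62 (SE 0.12) for H2-Eb1, with adjusted p of 7.8e-10, 1.5e-09 and 5.3e-08. The interval of each held the fold changes of the others.

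Cd74 was at 937.02 and 916.29 TPM in vehicle and at 417.96 and 413.01 TPM in MSDC, a log2 fold change of -1.13 (SE 0.06, adjusted p = 5.4e-10). It fell, but kept 44.8% of its vehicle mean. Its interval, -1.24 to -1.01, lay above those of H2-Aa (-1.85 to -1.49) and H2-Ab1 (-1.80 to -1.42). Differences in size between genes were not tested, here or elsewhere. The ratio of Cd74 to the summed TPM of H2-Aa, H2-Ab1 and H2-Eb1 was accordingly 3.55 and 3.68 in vehicle and 5.11 and 5.20 in MSDC, without overlap.

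The DM molecule, which edits the peptides bound to class II, is a pair of H2-DMa with a beta chain from H2-DMb1 or H2-DMb2. H2-DMa was at 257.65 and 234.37 TPM in vehicle and at 80.97 and 82.84 TPM in MSDC (log2 fold change -1.56, SE 0.08, adjusted p = 5.5e-10). H2-DMb1 was at 168.43 and 150.37 TPM in vehicle and at 88.18 and 90.25 TPM in MSDC (-0.81, SE 0.07, adjusted p = 3.3e-07). Both genes fell, H2-DMa to 33.3% and H2-DMb1 to 56.0% of the vehicle mean. H2-DMb2 was at 11.77 and 11.04 TPM in vehicle and at 3.03 and 2.23 TPM in MSDC (-2.08, SE 0.34, adjusted p = 0.000275). The intervals of the beta chain genes, both of which hold the X and Y pair, did not overlap (-0.96 to -0.66 for H2-DMb1 and -2.81 to -1.34 for H2-DMb2), and the split of reads between them is uncertain. Their counts summed gave -0.84 (adjusted p = 2.0e-07). The ratio of H2-DMa to the 2 beta chain genes was 1.43 and 1.45 in vehicle and 0.888 and 0.896 in MSDC, and H2-DMb2 gave 4.04 ± 0.138% of the beta chain counts in vehicle and 1.71 ± 0.388% in MSDC.

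Ctss was at 3063.9 and 3050.6 TPM in vehicle and at 1842.03 and 1855.59 TPM in MSDC. It had the smallest change of the 9, -0.70 (SE 0.06, adjusted p = 2.0e-07), and the groups did not overlap. Its interval, -0.82 to -0.57, overlapped that of H2-DMb1.

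**Figure D2:**
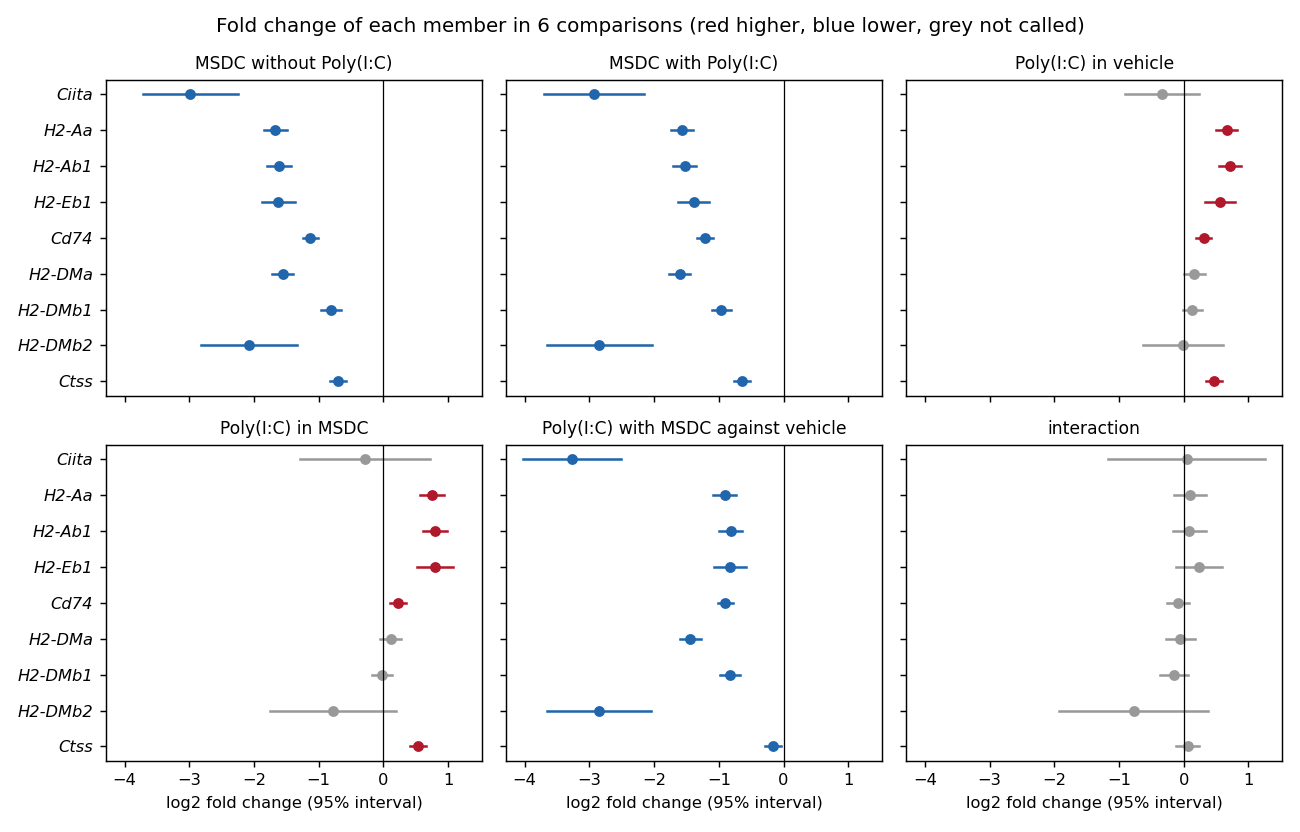
Log2 fold change of each member (points) with its 95% interval (bars) in the 6 comparisons, from edgeR's quasi-likelihood fit, with higher calls in red, lower calls in blue and values that did not pass in grey. All 9 members are blue in the 2 MSDC comparisons, 5 are red in the 2 Poly(I:C) comparisons and all 9 are grey in the interaction.

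The same question was asked in cells stimulated with Poly(I:C). All 9 members were again lower with MSDC, with a median log2 fold change of -1.53 against 0.00 over all genes tested. Here 13.6% of all genes tested were lower and 12.5% were higher. Ciita was at 1.02 and 1.46 TPM with Poly(I:C) and vehicle and at 0.12 and 0.20 TPM with Poly(I:C) and MSDC (9 and 19 counts). The groups did not overlap, and the log2 fold change was -2.93 (SE 0.36, adjusted p = 1.3e-05). It was -2.49 and -3.56 without replicates 1 and 2 of the Poly(I:C) with MSDC group.

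H2-Aa was at 186.49 and 208.2 TPM with Poly(I:C) and vehicle and at 64.26 and 71.41 TPM with Poly(I:C) and MSDC (-1.57, SE 0.08, adjusted p = 7.9e-10). H2-Ab1 was at 170.38 and 159.96 TPM against 63.47 and 53.84 TPM (-1.53, SE 0.08), and H2-Eb1 at 29.56 and 27.21 TPM against 11.69 and 10.49 TPM (-1.39, SE 0.11). The chain genes were lower in every MSDC library, with adjusted p of 1.4e-09 for H2-Ab1 and 1.1e-07 for H2-Eb1. Cd74 was at 1104.93 and 1094.1 TPM against 479.77 and 491.57 TPM (-1.21, SE 0.06, adjusted p = 2.0e-10).

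H2-DMa was at 253.62 and 273.74 TPM with Poly(I:C) and vehicle and at 94.4 and 82.59 TPM with Poly(I:C) and MSDC (-1.61, SE 0.08, adjusted p = 3.2e-10). H2-DMb1 was at 171.9 and 162.43 TPM against 89.54 and 86.18 TPM (-0.96, SE 0.07, adjusted p = 4.2e-08). Both genes of the main DM pair fell without overlap. H2-DMb2 was at 10.97 and 10.59 TPM against 2.45 and 0.53 TPM (-2.85, SE 0.38, adjusted p = 2.9e-05). Its replicates with Poly(I:C) and MSDC were far apart, at 26.57 and 5.76 counts, and the change was -4.29 without replicate 1 and -2.14 without replicate 2. Ctss was at 3995.5 and 4099.25 TPM against 2502.91 and 2813.5 TPM (-0.64, SE 0.06, adjusted p = 4.9e-07), again the smallest change.

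The next question was what Poly(I:C) changed. In vehicle, 5 of the 9 members rose and 0 fell, and the median log2 fold change was 0.31. In this comparison 7.52% of all genes tested were higher and 4.1% were lower. The 5 were both chains of I-A, the I-E beta chain, the invariant chain and cathepsin S. H2-Ab1 rose by 0.71 (SE 0.08, adjusted p = 1.1e-05), H2-Aa by 0.66 (SE 0.08, 1.7e-05), H2-Eb1 by 0.56 (SE 0.11, 0.00194), Ctss by 0.47 (SE 0.06, 3.3e-05) and Cd74 by 0.31 (SE 0.05, 0.000933). These are rises of 1.24-fold for Cd74 to 1.64-fold for H2-Ab1, and the values per library above show both Poly(I:C) libraries over both vehicle libraries for each of the 5.

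The 3 DM genes and Ciita did not pass in that comparison. The log2 fold change was 0.16 (SE 0.07, adjusted p = 0.181) for H2-DMa, 0.14 (SE 0.07, adjusted p = 0.251) for H2-DMb1 and -0.01 (SE 0.29, adjusted p = 0.995) for H2-DMb2. For Ciita it was -0.34 (SE 0.27, adjusted p = 0.494), with an interval from -0.91 to 0.23, and the libraries overlapped. That interval leaves room for a fall but holds no rise of the size of H2-Ab1. The ratio of H2-Aa to Ciita in TPM was 80.5 ± 7.19 in vehicle and 163 ± 28.4 with Poly(I:C).

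In MSDC-treated cells 5 of the 9 members rose with Poly(I:C) and 0 fell, with a median of 0.23. Here 4.82% of all genes tested were higher and 1.5% were lower. The 5 were those called in vehicle: H2-Eb1 rose by 0.80 (SE 0.13, adjusted p = 0.000576), H2-Ab1 by 0.80 (SE 0.09, 1.4e-05), H2-Aa by 0.76 (SE 0.09, 1.7e-05), Ctss by 0.53 (SE 0.06, 1.1e-05) and Cd74 by 0.23 (SE 0.05, 0.0196). The call for Cd74 was lost without any 1 of the 4 libraries compared (0.21 to 0.24, adjusted p = 0.0679 to 0.213). Ciita (-0.29, SE 0.47), H2-DMa (0.11, SE 0.08), H2-DMb1 (-0.02, SE 0.07) and H2-DMb2 (-0.78, SE 0.46) did not pass, with adjusted p of 0.838, 0.523, 0.945 and 0.443. H2-DMb2 passed as lower (-2.22, adjusted p = 0.0276) without replicate 1 of the Poly(I:C) with MSDC group.

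Whether MSDC altered the response to Poly(I:C) was tested by the interaction, which is positive where the response was larger in MSDC. For the members 0 of 9 passed in either direction, 0 had an unadjusted p under 0.05 in edgeR, and DESeq2 and limma called 0 as well. Over all genes tested, 0.12% were called higher and 0.103% lower. The interaction was 0.09 for H2-Aa (interval -0.15 to 0.34), 0.08 for H2-Ab1 (-0.17 to 0.34), 0.24 for H2-Eb1 (-0.12 to 0.59), -0.09 for Cd74 (-0.25 to 0.08) and 0.06 for Ctss (-0.12 to 0.24). For these 5 genes the intervals set the limit of a difference in response that the data could miss. That limit is loose for H2-Eb1, whose upper end of 0.59 lies above its response in vehicle (0.56). It is loose also for Cd74, whose lower end is -0.25 beside a response of 0.31. For H2-DMa the interval ran from -0.28 to 0.18, and for H2-DMb1 from -0.36 to 0.06. They were too wide to be informative for Ciita (-1.17 to 1.26) and H2-DMb2 (-1.93 to 0.38).

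The last comparison set cells with both agents against vehicle. All 9 members were lower with both agents, with a median of -0.90, while 12.8% of all genes tested were lower and 15.2% were higher. The fall was -3.27 (SE 0.35, adjusted p = 2.9e-06) for Ciita, -2.85 (SE 0.38) for H2-DMb2 and -1.44 (SE 0.08) for H2-DMa. It was -0.91 for H2-Aa, -0.90 for Cd74, and -0.83 for both H2-DMb1 and H2-Eb1. H2-Ab1 fell by 0.81. In percent of the vehicle mean, the chain genes H2-Aa, H2-Ab1 and H2-Eb1 stood at 51.9, 55.6 and 55.2%, Cd74 at 52.4% and H2-DMa at 36.0%. Ctss stood at 86.9% (-0.17, SE 0.06, adjusted p = 0.0411), and its call was lost without vehicle replicate 2 (-0.15) or without Poly(I:C) with MSDC replicate 1 (-0.09), and when only the 2 groups were fitted (-0.18). Without replicates 1 and 2 of the Poly(I:C) with MSDC group the change was -2.83 and -3.92 for Ciita and -4.29 and -2.17 for H2-DMb2. These 5 comparisons share groups and are not independent of each other.

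**Figure D3:**
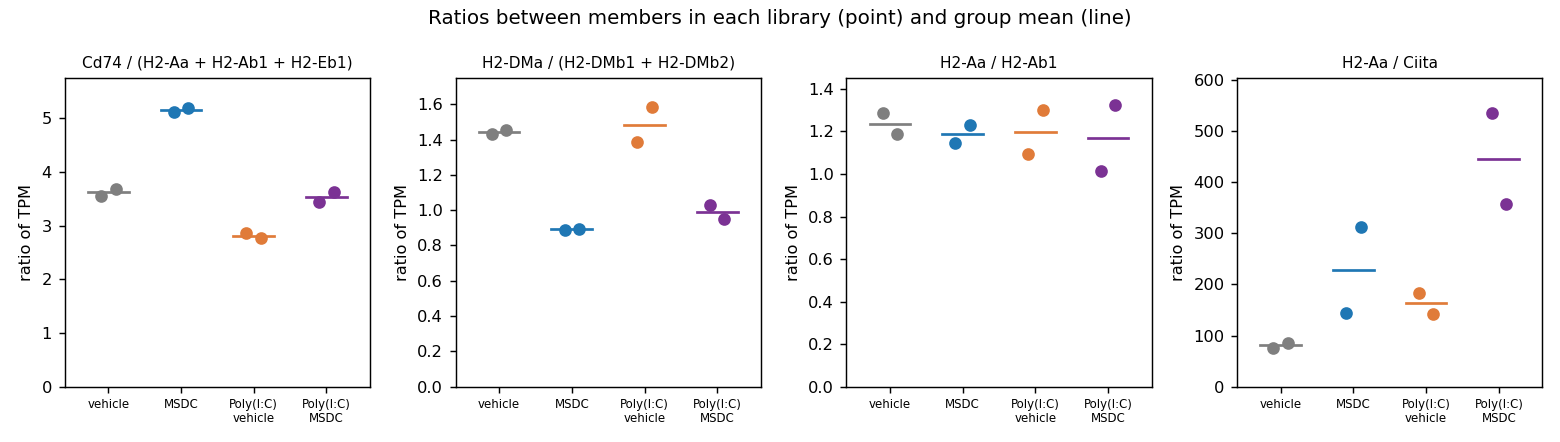
Ratios of TPM between members (vertical axes from 0, linear) in each library (points) with group means (lines). Cd74 over the 3 chain genes is highest in the MSDC group (5.11 and 5.20), H2-DMa over the beta chain genes is lower in the 4 libraries with MSDC, and the ratio of H2-Aa to H2-Ab1 overlaps among all groups.

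The proportions of the chain genes to each other varied little between groups. The ratio of H2-Eb1 to H2-Ab1 was 0.190 ± 0.00642 in vehicle, 0.189 ± 0.00524 in MSDC, 0.172 ± 0.00240 with Poly(I:C) and vehicle and 0.190 ± 0.00753 with Poly(I:C) and MSDC. The ratio of H2-Aa to H2-Ab1 was 1.09 and 1.30 in the libraries with Poly(I:C) and vehicle, and 1.01 and 1.33 in those with Poly(I:C) and MSDC, so that replicates differed more than group means (1.17 to 1.24). Cd74 over the 3 chain genes was lowest with Poly(I:C) and vehicle (2.86 and 2.77), and with both agents (3.44 and 3.62) it overlapped vehicle. H2-DMa over the beta chain genes was 1.39 and 1.58 with Poly(I:C) and vehicle and 1.03 and 0.952 with both agents. H2-Aa over Ciita was 446 ± 126 with both agents, where Ciita rests on 9 and 19 counts. No test was made of these ratios, which are descriptions.

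The other genes of the pathway were taken by list, chosen with earlier results of these data known. Of 12 genes for RFX, NF-Y and CREB proteins, coactivators and CTCF, MSDC without Poly(I:C) lowered 1 and raised 0 (median 0.03). The 1 was Rfxank, a subunit of RFX (-0.28, SE 0.09, adjusted p = 0.0355), which stood at 21.77 and 24.81 TPM in vehicle and 18.43 and 19.27 TPM in MSDC. The DNA-binding subunit Rfx5 was at 4.38 and 3.65 TPM in vehicle and 4.16 and 3.95 TPM in MSDC (0.09, SE 0.16, adjusted p = 0.759), and 0 of the 12 passed for MSDC with Poly(I:C). Poly(I:C) raised 1 of the 12 in vehicle, Kat2b, an acetyltransferase (0.58, SE 0.09, adjusted p = 0.000218). Over all genes tested, 12.4% were lower and 11.1% higher with MSDC alone, and 7.52% higher and 4.1% lower with Poly(I:C) in vehicle. For MSDC with Poly(I:C) 13.6% were lower and 12.5% higher, and for Poly(I:C) in MSDC 4.82% were higher and 1.5% lower. With both agents against vehicle 12.8% were lower and 15.2% higher. These shares belong beside the counts of this list and of those below, and 1 call among 12 is not read as a result about the list.

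Interferon gamma is the classical inducer of Ciita, and the transcription factor IRF1 takes part in that induction. Of 11 genes of this route, 5 fell and 1 rose with MSDC alone (median -0.14), and 5 rose and 0 fell with Poly(I:C) in vehicle (median 0.16). Irf1 was at 27.64 and 24.31 TPM in vehicle and at 51.61 and 50.01 TPM with Poly(I:C) (1.03, SE 0.08, adjusted p = 9.1e-08). It rose in the comparison in which Ciita did not pass, and it did not pass for MSDC alone (-0.07, SE 0.08, adjusted p = 0.622). The receptor genes Ifngr1 (-0.57, SE 0.07) and Ifngr2 (-0.45, SE 0.06) fell with MSDC alone, with adjusted p of 2.0e-05 and 4.1e-05. Socs1, an inhibitor of the route, fell by 1.39 (SE 0.16, adjusted p = 9.4e-06) with MSDC alone and rose by 1.28 (SE 0.14, adjusted p = 5.7e-06) with Poly(I:C) in vehicle.

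Of 16 genes for myeloid transcription factors and cytokine signalling with known links to Ciita or to macrophage state, 7 fell and 4 rose with MSDC alone (median -0.15). Irf4, a transcription factor of the interferon regulatory factor family, was at 16.06 and 12.54 TPM in vehicle and at 1.88 and 1.97 TPM in MSDC (-2.85, SE 0.13, adjusted p = 3.3e-10). Its change in the presence of Poly(I:C) was -2.85 as well, and Poly(I:C) in vehicle gave 0.00 (adjusted p = 0.994). These falls are close in size to those of Ciita, and the genes were not tested against each other. Irf8 fell by 0.76 (SE 0.07) and Pparg, a lipid-sensing nuclear receptor of alveolar macrophages, by 0.65 (SE 0.06), while Fos rose by 1.34 (SE 0.10). The adjusted p for these were 5.6e-07, 1.4e-06 and 7.5e-08.

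Of 18 genes for endosomal proteases and peptide handling, 9 fell and 2 rose with MSDC alone (median -0.23), and 9 rose and 0 fell with Poly(I:C) in vehicle (median 0.26). The cathepsin genes Ctsh (-0.76, SE 0.06), Ctsc (-0.71, SE 0.06) and Ctsk (-0.67, SE 0.05), the asparaginyl endopeptidase Lgmn (-0.67, SE 0.06) and the lysosomal thiol reductase Ifi30 (-0.61, SE 0.07) fell with MSDC, with adjusted p between 1.2e-07 and 1.2e-05. These changes were of the size of that of Ctss (-0.70). Sppl2a, the protease that removes the last fragment of the invariant chain, rose by 0.70 (SE 0.08, adjusted p = 6.4e-06) with Poly(I:C) in vehicle and fell by 0.34 (SE 0.08, adjusted p = 0.00374) with MSDC alone.

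Other class II genes and regulators of class II at the surface gave 2 lower and 1 higher of 6 tested with MSDC alone (median 0.21). Marchf1, a ubiquitin ligase that removes class II from the surface, was at 52.97 and 41.78 TPM in vehicle and at 33.92 and 35.28 TPM in MSDC (-0.42, SE 0.09, adjusted p = 0.00162), and rose by 0.52 (SE 0.08, adjusted p = 0.000559) with Poly(I:C) in vehicle. The others were tetraspanin genes, Cd63 lower (-0.35, SE 0.06) and Cd82 higher (0.43, SE 0.07). H2-Oa, the alpha chain of the DM inhibitor, was between 0.62 and 2.07 TPM and did not pass in any comparison. Its partner H2-Ob had at most 3 counts in a library and H2-Eb2, whose window also holds the X and Y pair, at most 1.

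**Figure D4:**
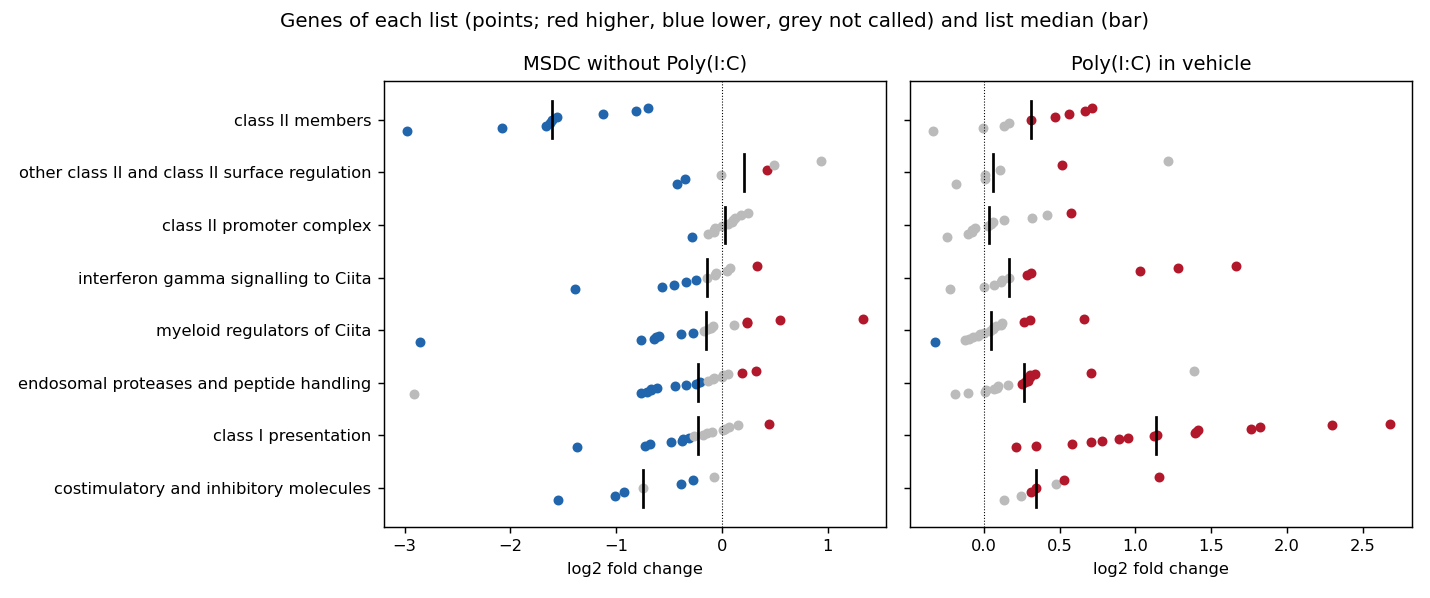
Log2 fold change (horizontal axes) of each tested gene of 8 lists (points, with higher calls in red, lower calls in blue and values that did not pass in grey) and the list medians (bars), for MSDC without Poly(I:C) at left and Poly(I:C) in vehicle at right. The class II members lie to the left of 0 at left, with a median of -1.61, and the 16 class I genes lie to the right of 0 at right, with a median of 1.13.

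Class I presentation, which shows peptides from the cytosol, moved otherwise with Poly(I:C). All 16 class I genes of the list rose with Poly(I:C) in vehicle (median 1.13) and in MSDC (median 1.01), whereas 5 of the 9 class II members did. With MSDC alone 7 of the 16 fell and 1 rose (median -0.22). In the presence of Poly(I:C), MSDC lowered 9 of the 16 and raised 0 (median -0.32), while 13.6% of all genes tested were lower. In the interaction 2 of the 16 passed as lower and 0 as higher, against 0.103% and 0.12% of all genes tested. Nlrc5, the class I counterpart of CIITA, was at 3.23 and 2.67 TPM in vehicle, 0.90 and 1.32 TPM in MSDC, 17.87 and 19.06 TPM with Poly(I:C) and vehicle, and 9.63 and 11.47 TPM with both agents. It thus fell with MSDC alone (-1.37, SE 0.16, adjusted p = 7.8e-06), as Ciita did, but rose with Poly(I:C) in vehicle (2.68, SE 0.13, adjusted p = 2.7e-10), where Ciita did not pass. With both agents against vehicle, 16 of 16 class I genes were higher (median 0.86) and 9 of 9 class II members were lower. The difference between the lists was not tested.

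A last list holds costimulatory and inhibitory molecules of the macrophage surface. Of 7 tested, 5 fell and 0 rose with MSDC alone (median -0.74). The 5 were the costimulatory ligand genes Cd86 (-1.55, SE 0.26, adjusted p = 0.000304), Cd80 (-1.01, SE 0.13, adjusted p = 2.4e-05) and Icosl (-0.39, SE 0.12, adjusted p = 0.0292), the adhesion molecule gene Icam1 (-0.27, SE 0.06, adjusted p = 0.0055), and Cd200r1 (-0.93, SE 0.08, adjusted p = 1.5e-07), which encodes an inhibitory receptor. The genes of the inhibitory ligands PD-L1 and PD-L2, Cd274 (-0.07, adjusted p = 0.598) and Pdcd1lg2 (-0.74, adjusted p = 0.0646), did not pass. Poly(I:C) in vehicle raised 4 of the 7, Cd86 by 1.16 (SE 0.21, adjusted p = 0.00137), Cd80 by 0.53 (SE 0.12), Cd274 by 0.35 (SE 0.08) and Icam1 by 0.31 (SE 0.06).

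Other cells of the lung carry class II, so their markers are given beside the members. Of the B cell markers, 6 of the 6 in the table had at most 3 counts in every library, and of the T and NK cell markers 4 of 5. The 7 dendritic cell markers summed to 5.67 to 6.61 TPM in vehicle and 3.5 to 3.96 in MSDC. Their sums were 7.93 to 8.85 with Poly(I:C) and vehicle and 4.8 to 5.38 with both agents. Flt3, their defining gene, had at most 2 counts in a library. Clec9a had the highest level of the 7, at 3.57 TPM in vehicle, 1.85 in MSDC, 6.23 with Poly(I:C) and vehicle and 3.30 with both agents on average. The sums and Clec9a had the same order of groups as the chain genes, but no other marker of the 7 was highest with Poly(I:C) and vehicle. Zbtb46 (1.18 TPM in vehicle and 1.07 with Poly(I:C) and vehicle) and Fscn1 (0.935 and 0.735) were lower there than in vehicle. The 8 markers of interstitial macrophages and monocytes summed to 12.17 to 14.0 TPM in vehicle, 6.63 to 8.72 in MSDC, 9.24 to 11.64 with Poly(I:C) and vehicle and 6.12 to 7.47 with both agents. Ccr2 was at 2.09 TPM in vehicle and 0.48 in MSDC, while Cx3cr1 and Folr2 had at most 3 counts in a library. The 3 neutrophil markers in the table summed to 27.78 to 34.18 TPM in vehicle and 39.73 to 48.27 in MSDC. S100a8 alone was higher there (28.3 and 42.3 TPM on average), while Csf3r (1.92 and 1.38) and Cxcr2 (0.73 and 0.305) were lower. The 6 epithelial markers summed to 33.85 to 36.35 TPM in vehicle and 26.53 to 29.69 in MSDC, of which Cdh1 gave 32.0 and 25.1 TPM on average, while Sftpc and Sftpb had at most 2 counts in a library. The part of these cells in the class II results was not tested.

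The profile most like the mean of the members was sought among 9236 tested genes with at least 5 CPM (counts scaled to library size) on average, by Pearson's r over the 8 libraries, which fall into the 4 groups. The 6 most alike were Amigo2 (r = 0.999), Tgfbi (0.998), Qpct (0.998), Rnase2a (0.997), Mmp12 (0.997) and Tnfrsf1b (0.997). Mmp12, which encodes a macrophage elastase, was at 4967.5 ± 592 TPM in vehicle, 657.5 ± 32.6 in MSDC, 5909 ± 252 with Poly(I:C) and vehicle and 973 ± 90.1 with both agents. Tgfbi, a secreted matrix protein gene, was at 345.04 ± 14.9, 98.5 ± 9.95, 419 ± 7.87 and 116 ± 12.5 TPM in the same order. Of the members, H2-DMa (0.996), Cd74 (0.995) and H2-DMb1 (0.989) were closest to the members' mean, and Ctss (0.873) and H2-DMb2 (0.886) farthest. Each member is itself part of that mean, so its r cannot be set against those of the 6 other genes. These correlations are descriptions of libraries that share their treatments.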

How the data were processed

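The authors deposited 1 table for the 8 RNA-seq libraries. Its expected counts, named read counts per the file headers, were partly not whole (5.953 to 7.19% of values in a library) and were rounded here. Its TPM values, so named per the file headers, have nearly the same sum in every library. For neither unit do the sources used here say how it was made. TopHat2 2.1.1, Bowtie2 2.3.4 and Cuffdiff, with GRCm38 (mm10), appear in the submitters' processing notes. TPM served for levels and ratios, and 8 FPKM columns were not used.

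The counts of all 8 libraries entered a quasi-likelihood fit with a term for each of the 4 groups (edgeR 4.0.16, R 4.3.3, TMM factors 0.985 to 1.027, 4 residual degrees of freedom). The filter filterByExpr kept 11621 of 15521 genes, all 9 members among them. Comparisons were called two-sided at a Benjamini-Hochberg adjusted p under 0.05 over all tested genes. Standard errors came from the fold change and its F statistic, and 95% intervals from these with residual and prior degrees of freedom together. The prior, estimated across genes, added 10.8. Chi-squared per degree of freedom between replicate counts was 15.0 in vehicle, 4.32 in MSDC, 6.35 with Poly(I:C) and vehicle and 6.40 with both agents. The procedure was tested on simulated data. DESeq2 1.42.0 and limma 3.58.1 were alternatives. A floor of 3 counts is 0.102 to 0.104 CPM in a library and covers counting error only.

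The members and the lists were chosen with earlier results of these data known. All members were named, and from each list the genes with fixed roles or the smallest p over the comparisons, at most 6, of which the text prints a part. Gene symbols turned into dates (23) were repaired from gene identifiers. The promoter and start site tables are RefSeq's for GRCm38.p6, and 15419 gene identifiers were found in RefSeq. The markers covered alveolar macrophages, dendritic cells, B cells, interstitial macrophages and monocytes, T and NK cells, neutrophils and epithelial cells.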

Additional observations from a re-analysis of the deposited data

How the results depend on the processing

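For the 54 member changes, 867 values were computed under other scalings, filters, tools, groups and left-out libraries. Of these, 859 kept direction where called and their side of the threshold, 7 lost the call, 1 gained it and 0 reversed. The losses were those of Cd74 and Ctss given above. The members lower with Poly(I:C) in MSDC numbered 0 to 1 when 1 library was left out, the 1 being H2-DMb2 without Poly(I:C) with MSDC replicate 1. Under limma on log2(TPM + 0.5) Ciita moved to -1.60 with MSDC alone, -1.39 in the presence of Poly(I:C) and -1.69 with both agents against vehicle, since the pseudocount is near its level. Replicate numbers did not pair the libraries (correlations from -0.026 to 0.034 over 6 pairs of groups), and with a replicate block the members called stayed at 9 lower for MSDC in each of its comparisons and 5 higher for Poly(I:C) in each, with Ciita at -2.98 for MSDC alone. In the interaction, 0 members passed under any setting, and 1 had an unadjusted p under 0.05 without vehicle replicate 1 and 1 without Poly(I:C) with MSDC replicate 1.

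The background counts moved more. For Poly(I:C) in vehicle, 874 genes were higher and 477 lower, against 729 and 867 with library totals alone, 648 and 638 with limma at a pseudocount of 0.5, 631 and 630 at 0.1, 685 and 257 with only the 2 groups, and 605 and 243 without Poly(I:C) with vehicle replicate 1. For Poly(I:C) in MSDC, 560 were higher and 174 lower, against 769 and 415 with only the 2 groups, 686 and 298 with no expression filter, and 365 to 725 and 51 to 332 when 1 library was left out. For MSDC alone, 1294 were higher, against 819 and 822 without MSDC replicates 1 and 2. With both agents against vehicle, 1764 were higher and 1487 lower, against 1435 and 1928 with library totals alone. The interaction called 14 higher and 12 lower, against 23 and 24 with DESeq2, 64 and 52 with no filter, 16 and 8 with the replicate block, 14 and 4 with library totals alone, 6 and 16 or 3 and 2 with limma, and 3 to 62 and 2 to 39 when 1 library was left out. Depth limits Ciita and H2-DMb2, whose lowest counts were 9 and 5.76.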
